A study of Homo sapiens with 8 samples.

Results

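The integrins, the laminins and 4 large glycoproteins of the basement membrane were followed as 1 module in endothelial cells made from human induced pluripotent stem cells. The members were set by a rule on gene names, made with earlier results of these data known. It took every protein-coding gene of the deposited table named as an integrin alpha or beta subunit or a laminin chain. NID1, NID2, HSPG2 and AGRN were added. This gave 40 genes of the 16828 protein-coding genes and 30386 genes in the table: 17 integrin alpha subunits, 7 integrin beta subunits, 5 laminin alpha chains, 4 laminin beta chains, 3 laminin gamma chains and the 4 glycoproteins. ITGAD and ITGB6, whose names fit the same pattern, were not analysed here.

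RNA sequencing compared 4 samples labelled iEC with 4 samples labelled iREC, lettered C, D, E and F in each group. Both groups were differentiated from 1 established induced pluripotent stem cell line, WTC-TJP1, and both were collected at passage 1. The series names the iREC as retinal endothelial cells from a matched differentiation. The cell type label of every sample reads endothelial cells derived from such stem cells, and neither the steps nor the agents that set the iREC apart are given in the labels. All samples share 1 cell line, so they are not different donors. Nothing in the labels says whether the letters stand for separate differentiations, so the p-values measure the spread between these samples, which may be technical.

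Integrins are receptors built of 1 alpha and 1 beta subunit that hold a cell to the matrix or to other cells. The alpha subunit largely sets which ligand is bound, and ITGB1 is the partner of most of them. Laminins are secreted trimers of 1 alpha, 1 beta and 1 gamma chain that form a sheet under the cell. In blood vessels, LAMA4 and LAMA5 are the usual alpha chains. Nidogens and perlecan (HSPG2) link the laminin sheet to the collagen IV network, and agrin (AGRN) ties laminin to dystroglycan at the cell surface.

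Libraries held 14877502 to 16971865 counts (iEC) and 13739364 to 15987839 counts (iREC). Levels are given as CPM, the count of a gene divided by its library size after scaling by TMM (trimmed mean of M-values). Levels of different genes are compared only as RPKM, which also divides by gene length. The deposited gene length is the same for every sample, whichever transcripts were expressed, so comparisons between genes are approximate. A count of 3 corresponded to between 0.178 and 0.215 CPM. The 10 endothelial markers were all tested, and 2 were higher and 4 lower in iREC, with summed levels of 7325 to 9420 CPM in iEC and 4306 to 9588 CPM in iREC. Sample iREC F stood apart from the other iREC. It had the lowest endothelial sum, 4306 CPM, and the highest sums of the 14 mural and mesenchymal markers, 4530 CPM against 604 to 1247, and of the 10 epithelial markers, 4928 CPM against 309 to 1123. In iEC these sums ran from 115 to 431 CPM for the mural and mesenchymal markers (iEC F the highest), and from 421 to 1227 CPM for the epithelial markers (iEC F the highest). Of 11 tested mural and mesenchymal markers 4 were higher in iREC, and of 6 tested epithelial markers 1 was higher and 1 lower. Among all tested genes 13.2% were higher and 11.7% lower at the threshold given below, and the epithelial counts are near these shares. In bulk RNA, a smaller share of cells of 1 type and less RNA in each cell cannot be told apart. The part of these other cell types in the results that follow was not tested.

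The 2 groups differed in named subunits and chains rather than across the module in 1 direction. Of the 40 members, 34 passed the filter on low counts, and edgeR's quasi-likelihood test called 15 of them at an adjusted p under 0.05. In iREC, 7 were higher (ITGA9, ITGAV, LAMA1, LAMB1, LAMB4, LAMC1 and LAMC3) and 8 were lower (among them ITGA2, ITGA6, ITGA10, ITGAX, LAMA4, LAMB3 and NID2). Among all 15330 tested genes, 25.0% were called, 13.2% higher and 11.7% lower. The median log2 fold change, iREC over iEC, was 0.08 over the 34 members and 0.02 over all tested genes. Between the groups, 14 of the 34 did not overlap in CPM, 7 in each direction, against 29.1% of all tested genes. Without iREC F, 6 members were called higher and 6 lower. The authors' deposited table gave 18 members an adjusted p under 0.05, all 15 among them, and 0 of the 15 had the opposite sign there. Those values come from the same samples, so the match is no independent support, and the share of all genes there is not given here. The 6 members that did not pass the filter were ITGA2B, ITGAL, ITGAM, ITGB4, ITGB7 and LAMA3.

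**Figure D1:**
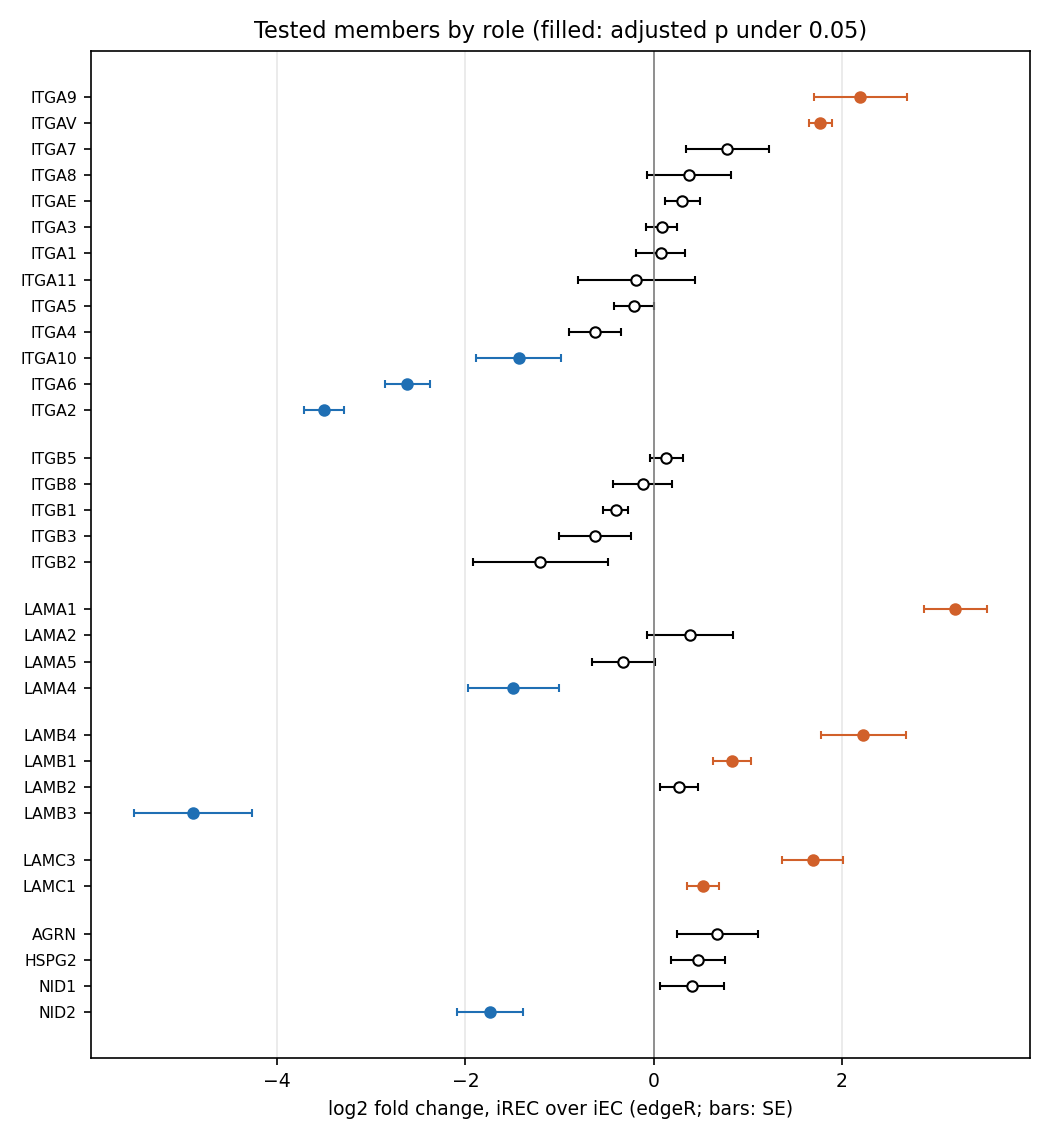
Log2 fold change of iREC over iEC (horizontal axis, edgeR) for 32 of the 34 tested members, grouped by role, with bars of 1 standard error and filled points for an adjusted p under 0.05. ITGAX is left out because its iREC counts were all 0, and 1 other member is not shown; LAMB3 lies farthest to the left at -4.89 and LAMA1 farthest to the right at 3.21.

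Among the integrin alpha subunits, the laminin and collagen receptor subunits ITGA2 and ITGA6 were lower in iREC, and ITGAV and ITGA9 were higher. Of 17 alpha subunits, 14 were tested, 2 rose, 4 fell and 8 were not called. Among all tested genes 13.2% were called higher and 11.7% lower, and the count that rose is near the share called higher. For ITGA2, ITGA6 and ITGAV, which differed most clearly, the promoters just ahead of each gene are shown to give their sequence context. They are RefSeq sequences on GRCh38.p14, 5′ to 3′ along the gene's strand, ending just before the annotated gene or at the RefSeq start. Capitals mark matches, on either strand, to 5 motifs that were each searched alone, so that matches to different motifs could overlap. The GC box was searched as GGGCGG, and the AP-1 motif as TGANTCA. The core motif of ETS factors was searched as CCGGAA. For the TATA box the letters were TATAAA, and the E-box was searched as CACGTG.
ITGA2 (chr5:52989102-52989325, plus strand): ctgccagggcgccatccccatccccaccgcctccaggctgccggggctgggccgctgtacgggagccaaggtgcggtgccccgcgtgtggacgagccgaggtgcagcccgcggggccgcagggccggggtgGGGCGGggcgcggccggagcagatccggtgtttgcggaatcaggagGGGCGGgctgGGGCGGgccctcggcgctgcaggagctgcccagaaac
ITGA6 (chr2:172427086-172427335, plus strand): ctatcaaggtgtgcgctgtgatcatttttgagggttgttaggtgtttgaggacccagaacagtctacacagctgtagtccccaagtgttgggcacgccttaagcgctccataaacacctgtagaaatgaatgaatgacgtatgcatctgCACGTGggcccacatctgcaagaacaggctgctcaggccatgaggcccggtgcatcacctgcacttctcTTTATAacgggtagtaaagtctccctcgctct
ITGAV (chr2:186589806-186590055, plus strand): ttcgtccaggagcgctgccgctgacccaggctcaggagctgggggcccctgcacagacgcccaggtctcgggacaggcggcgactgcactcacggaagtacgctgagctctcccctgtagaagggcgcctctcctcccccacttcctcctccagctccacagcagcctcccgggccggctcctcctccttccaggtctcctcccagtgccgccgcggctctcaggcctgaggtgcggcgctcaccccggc
The ITGA2 stretch held 3 GC boxes, and its whole 250-base window held 4. The ITGA6 stretch held 1 E-box and 1 TATA box, read on the opposite strand, and ITGAV held no match to these letters. ITGA6 and ITGAV have 2 RefSeq starts each, of which 1 is shown. The other ITGA6 entry held 3 GC boxes and 1 ETS match, and the other ITGAV entry held no match. The promoter table held 35 entries for 28 of the 40 members. A GC box was in 20 of these entries, an ETS match in 5, AP-1 in 2, a TATA box in 2 and an E-box in 1. Among all 35116 promoter entries the shares were 42.6%, 14.5%, 6.57%, 10.7% and 6.34%. These matches describe letters only and say nothing of what binds there.

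ITGA2, the alpha subunit of a collagen and laminin receptor (chromosome 5, 52989326 to 53094779, GRCh38), stood at 163, 193, 272 and 189 CPM in iEC C to F (samples C, D, E and F in that order) and at 13.1, 19.8, 18.6 and 20.3 CPM in iREC C to F. Every iREC sample lay far below every iEC sample. Averages of 204 ± 46.9 CPM in iEC and 17.96 ± 3.33 CPM in iREC (SD, n = 4 each) gave a fitted log2 fold change of -3.51 ± 0.21 (SE; adjusted p 1.75e-05 by edgeR), or 11.4-fold lower.

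ITGA6, the alpha subunit of the main laminin receptors (chromosome 2, 172427354 to 172506282), stood at 232, 159, 255 and 231 CPM in iEC C to F and at 28.3, 46.5, 25.0 and 43.3 CPM in iREC C to F. The groups did not overlap. It fell to an average of 35.8 ± 10.7 CPM against 219 ± 41.5 CPM in iEC (SD, n = 4 each), and the fitted log2 fold change was -2.62 ± 0.24 (SE; adjusted p 0.000118 by edgeR), or 6.13-fold lower.

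ITGAV, the alpha subunit of receptors for RGD-bearing ligands such as vitronectin and fibronectin (chromosome 2, 186590065 to 186680901), moved the other way. It stood at 117, 109, 105 and 138 CPM in iEC C to F and at 429, 362, 406 and 403 CPM in iREC C to F. The 4 iREC samples lay close together and above all iEC samples. It rose to an average of 400.0 ± 27.7 CPM against 117 ± 14.5 CPM in iEC (SD, n = 4 each), and the fitted log2 fold change was 1.77 ± 0.12 (SE; adjusted p 3.78e-05 by edgeR), or 3.42-fold higher.

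ITGA9, a subunit that binds tenascin, osteopontin and other ligands with ITGB1 (chromosome 3, 37452115 to 37823514), was uneven within iEC. It stood at 113 and 109 CPM in iEC C and D but at 25.2 and 37.9 CPM in iEC E and F, and at 422, 304, 388 and 194 CPM in iREC C to F. Each iREC sample lay above every iEC sample, with iREC F the lowest of the 4. It rose to an average of 327 ± 101 CPM against 71.2 ± 46.1 CPM in iEC (SD, n = 4 each), and the fitted log2 fold change was 2.20 ± 0.49 (SE; adjusted p 0.0104 by edgeR). ITGA9-AS1, on the opposite strand, shares 6.46% of the ITGA9 exon bases and averaged 1.48 CPM in iEC and 6.39 CPM in iREC. Whether the counting used the strand is not given in the sources used here.

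The other 2 alpha subunits called were scarce. ITGA10, a collagen receptor subunit best known from cartilage, stood at 6.44, 10.2, 5.50 and 3.22 CPM in iEC C to F and at 1.96, 2.998, 3.42 and 0.983 CPM in iREC C to F. Its groups overlapped between iEC F and iREC E, and the fitted log2 fold change was -1.43 ± 0.45 (SE; adjusted p 0.0462 by edgeR). It was no longer called in 7 of 8 fits with 1 sample left out and in 3 of the 9 other alternatives, with adjusted p up to 0.113. ITGAX, known as CD11c and usually found on leukocytes, had 28, 68, 27 and 15 counts in iEC C to F and 0 counts in each iREC sample. It was at least 11.1-fold lower in iREC against a floor of 3 counts per library (edgeR adjusted p 0.00259). Beside it, the 10 leukocyte markers summed to between 100.3 and 124 CPM in iEC and between 31.2 and 65.0 CPM in iREC. LAPTM5 held most of the iEC sum with a mean of 113 CPM, and 7 of the 10 (SPI1, CD14, CD68, CSF1R, LYZ, CD53 and TYROBP) were under 1 CPM in every sample. Of the 2 tested, PTPRC was higher and LAPTM5 lower in iREC.

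ITGA5 and ITGA3, the alpha subunits with the highest RPKM in iEC, were not called, nor was ITGA1. ITGA5, the fibronectin receptor subunit, stood at 450, 826, 581 and 815 CPM in iEC C to F and at 687, 512, 610 and 500.1 CPM in iREC C to F. The groups overlapped, with a log2 difference of -0.21 ± 0.21 (SE, edgeR adjusted p 0.507). ITGA3, a receptor subunit for LAMA5 and LAMA3, ranged from 276 to 465 CPM in iEC and from 363 to 424 CPM in iREC, a log2 difference of 0.09 ± 0.16 (SE, adjusted p 0.734). ITGA1, a collagen and laminin receptor subunit, ranged from 169 to 324 CPM in iEC and from 192 to 394 CPM in iREC (log2 difference 0.08 ± 0.26, SE, adjusted p 0.861). This direction turned to -0.08 without iEC E and to -0.18 without iREC F. PELO shares 475 exon bases with ITGA1 on the same strand and averaged 50.7 CPM in iEC and 29.04 CPM in iREC.

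ITGA4, the subunit that binds VCAM1 and fibronectin, stood at 43.0, 40.6, 69.2 and 58.9 CPM in iEC C to F and at 52.4, 24.9, 25.4 and 34.8 CPM in iREC C to F. The groups overlapped through iREC C, and the log2 difference was -0.62 ± 0.27 (SE, edgeR adjusted p 0.126). Without iREC C it was -0.90 and past the threshold, at an adjusted p of 0.0252. ITGA8, a subunit typical of smooth muscle and mesenchyme, ranged from 5.56 to 25.5 CPM in iEC and from 13.01 to 25.0 CPM in iREC (log2 difference 0.37 ± 0.45, SE, adjusted p 0.580). ITGAE, which binds E-cadherin, ranged from 16.5 to 23.0 CPM in iEC and from 18.3 to 29.9 CPM in iREC (log2 difference 0.31 ± 0.18, SE, adjusted p 0.257). ITGA7 and ITGA11 averaged under 7 CPM in both groups and were not called. ITGA2B, ITGAL and ITGAM, the alpha subunits of platelets and leukocytes that were not tested, reached at most 1.12 CPM in any sample. The 3 tested megakaryocyte and platelet markers had 1 higher call, SELP, which endothelial cells also carry, beside 13.2% called higher among all tested genes. Their list summed to 3.38 to 5.56 CPM in iEC and 26.7 to 91.7 CPM in iREC. SELP held most of the iREC sum, at 39.7, 69.8, 80.7 and 21.4 CPM in iREC C to F.

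**Figure D2:**
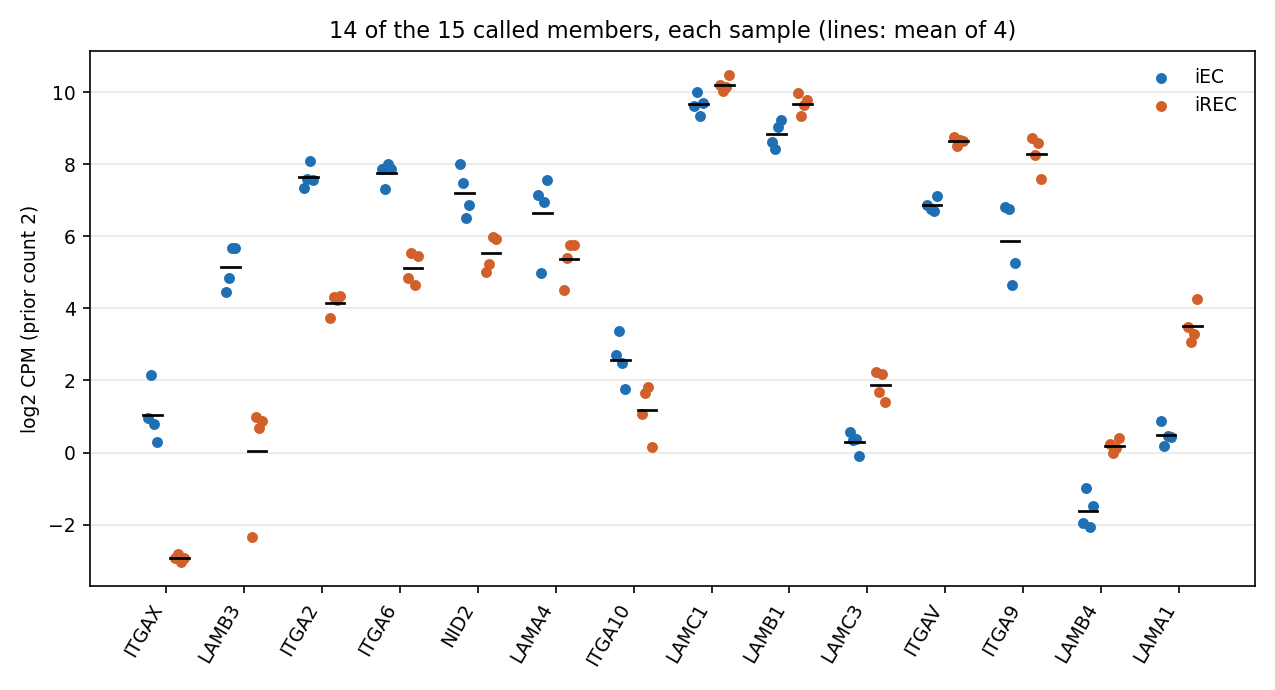
Log2 CPM (vertical axis, prior count 2) of 14 of the 15 called members in each of the 4 iEC and 4 iREC samples, ordered by log2 fold change, with a line at each group's mean. ITGA2, ITGA6 and LAMB3 are lower in all 4 iREC and ITGAV is higher in all 4, whereas ITGA10 and LAMA4 overlap between the groups.

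Per length, the makeup of the alpha subunits that can pair with ITGB1 differed while their sum was similar. The summed RPKM of the 12 partners was 232 ± 28.7 in iEC and 234 ± 22.4 in iREC (SD, n = 4). ITGAV took 6.20 ± 0.87% of that sum in iEC and 20.8 ± 1.04% in iREC, and ITGA9 took 3.83 ± 2.71% and 16.7 ± 4.15%. ITGA6 took 14.8 ± 3.90% in iEC and 2.40 ± 0.90% in iREC, and ITGA2 took 11.2 ± 2.86% and 0.99 ± 0.26%. None of these 4 shares overlapped between the groups (ITGAV, ITGA9, ITGA6, ITGA2). ITGA5 held the largest share in both groups, 37.5 ± 6.12% in iEC and 32.4 ± 1.99% in iREC, and ITGA3 held 16.1 ± 1.69% and 17.1 ± 1.64%, and the ranges of both overlapped. The ratio of ITGAV to ITGA6, from RPKM, was 0.436 ± 0.0934 in iEC and 9.64 ± 3.33 in iREC. No test was run on these shares, sums and ratios.

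**Figure D3:**
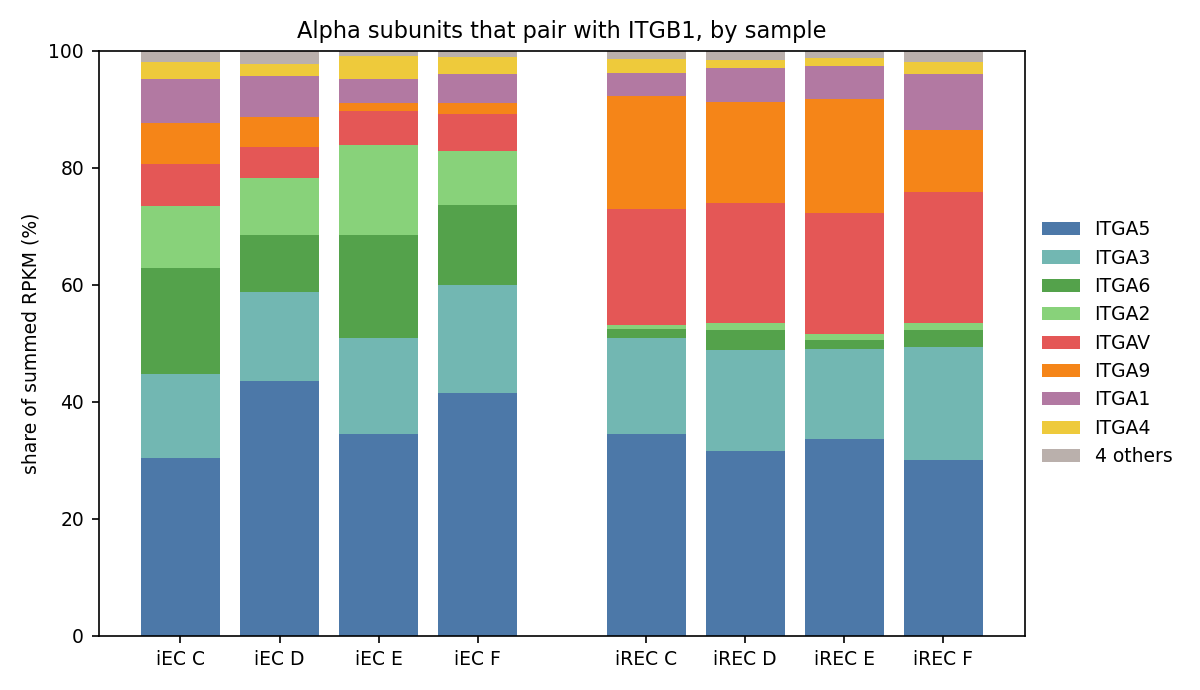
Share of each alpha subunit (vertical axis, percent of summed RPKM) among the 12 subunits that pair with ITGB1, 1 bar per sample, 4 iEC at the left and 4 iREC at the right, with ITGA7, ITGA8, ITGA10 and ITGA11 joined as 4 others. ITGA6 and ITGA2 together fill a larger part of each iEC bar than of any iREC bar, and ITGAV and ITGA9 take more of each iREC bar.

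Among the integrin beta subunits, 0 of 5 tested were called by edgeR, 1 had an unadjusted p under 0.05, and limma-voom called 1. DESeq2 called 2, ITGB1 and ITGB7, where it called 23.2% of all genes it tested. ITGB1, the common partner, stood at 2369.8, 2281, 2318 and 2799 CPM in iEC C to F and at 1967, 1941, 1799.7 and 1675 CPM in iREC C to F. All 4 iREC samples lay below all iEC samples. Averages of 2442 ± 241 CPM in iEC and 1846 ± 135 CPM in iREC (SD, n = 4 each) gave a fitted log2 difference of -0.40 ± 0.13 (SE; adjusted p 0.0505 by edgeR), just outside the threshold. It was past the threshold with DESeq2 (adjusted p 0.0204), limma-voom (0.0351), library size only (0.0350) and protein-coding genes only (0.0492), and its adjusted p over all alternatives reached 0.134.

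ITGB3, a partner of ITGAV, stood at 46.2, 52.1, 120 and 106 CPM in iEC C to F and at 27.5, 46.3, 66.5 and 70.9 CPM in iREC C to F. Its groups overlapped, and in both groups samples E and F were higher than C and D (log2 difference -0.62 ± 0.38, SE, edgeR adjusted p 0.266). ITGB5, another partner of ITGAV, was even in iEC, from 185 to 196 CPM, and stood at 223, 228, 244 and 135 CPM in iREC C to F, where F was the low one (log2 difference 0.14 ± 0.18, SE, adjusted p 0.608). ITGB8 and ITGB2, the leukocyte beta subunit, averaged 9.71 and 1.97 CPM in iEC and 8.96 and 0.851 CPM in iREC, with adjusted p of 0.822 and 0.254. The 2 that were not tested were ITGB4, the partner of ITGA6 in hemidesmosomes, at 1.44 CPM or less, and ITGB7. In the authors' deposited table ITGB7 had a log2 fold change of -3.23 at an adjusted p of 0.0101, and its means were 0.766 CPM in iEC and 0.0822 CPM in iREC. ZNF740, on the opposite strand, shares 42.1% of the ITGB7 exon bases and averaged 38.7 CPM in both groups. ITGB1 made up 89.4 ± 1.57% of the summed RPKM of the 4 beta partners of ITGAV in iEC and 87.3 ± 1.70% in iREC (SD, n = 4).

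Among the laminin chains, LAMB1 and LAMC1, the beta and gamma chains of most vascular laminins, were higher in iREC. The LAMC1 call was lost in 7 of 8 fits with 1 sample left out, and the LAMB1 call in 1. LAMB3, a beta chain of the laminin of epithelial anchoring sites, was lower. Of 12 chains, 11 were tested, 5 rose and 3 fell, with a median log2 fold change of 0.39 over the 11 chains tested. For the 19 integrins tested the median was -0.18, and 6 were called, 2 higher and 4 lower. Among all tested genes 25.0% were called, 13.2% higher and 11.7% lower, and the integrin count is near that share. The promoter stretches of LAMB1 and LAMB3, the beta chains that moved in opposite directions, are given in the format used for ITGA2.
LAMB1 (chr7:108003256-108003411, minus strand): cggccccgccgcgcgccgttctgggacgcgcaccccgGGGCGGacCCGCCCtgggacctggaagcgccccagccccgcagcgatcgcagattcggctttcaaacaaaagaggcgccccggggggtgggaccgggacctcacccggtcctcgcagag
LAMB3 (chr1:209652467-209652675, minus strand): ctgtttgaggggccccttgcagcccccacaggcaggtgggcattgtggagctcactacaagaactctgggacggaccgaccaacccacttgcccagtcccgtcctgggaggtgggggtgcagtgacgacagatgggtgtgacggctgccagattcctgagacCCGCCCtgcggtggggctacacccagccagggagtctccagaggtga
The LAMB1 stretch held 2 of the 4 GC boxes of its window, and the LAMB3 stretch held 1 GC box, with no match to the other 4 motifs. LAMB3 has 3 RefSeq starts, of which 1 is shown. The other entries each held 1 GC box, and 1 of them also held 1 AP-1 match.

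Of the laminin alpha chains, LAMA4 (chromosome 6, 112108760 to 112254939) stood at 141, 31.4, 125 and 188 CPM in iEC C to F and at 22.6, 42.1, 53.7 and 54.4 CPM in iREC C to F. Only iEC D, at 31.4 CPM, lay within the iREC range. Averages of 121 ± 65.8 CPM in iEC and 43.2 ± 14.8 CPM in iREC (SD, n = 4 each) gave a fitted log2 fold change of -1.49 ± 0.48 (SE; adjusted p 0.0497 by edgeR). Without iEC D the log2 fold change was -1.82 at an adjusted p of 0.0039. It was not called in any of the other 7 fits with 1 sample left out, nor in 6 of the 9 other alternatives, with adjusted p up to 0.118.

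LAMA5, the other vascular alpha chain (chromosome 20, 62307955 to 62367312), was not called. It stood at 262, 368, 356 and 588 CPM in iEC C to F and at 198, 247, 285 and 529 CPM in iREC C to F, with sample F the highest of both groups. The log2 difference was -0.32 ± 0.33 (SE, edgeR adjusted p 0.522), and it ran from -0.07 without iEC F to -0.69 without iREC F, not called in either fit. LAMA1, an embryonic alpha chain, was scarce but higher in every iREC sample. It ran from 1.01 to 1.69 CPM in iEC and stood at 11.1, 8.21, 9.65 and 19.1 CPM in iREC C to F, a log2 fold change of 3.21 ± 0.34 (SE, adjusted p 0.000224), or 9.25-fold higher. LAMA2, the muscle alpha chain, averaged 2.52 CPM in iEC and 3.31 CPM in iREC (log2 difference 0.39, adjusted p 0.572). LAMA3 did not pass the filter: it had 0, 0, 5 and 0 counts in iEC C to F and 8, 37, 17 and 120 counts in iREC C to F, with F the highest. In the authors' deposited table LAMA3 had a log2 fold change of 5.28 at an adjusted p of 5.03e-05.

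Of the beta chains, LAMB1 (chromosome 7, 107923799 to 108003255) stood at 394, 345, 525 and 595 CPM in iEC C to F and at 999, 652, 793 and 873 CPM in iREC C to F. The groups did not overlap. It rose to an average of 829 ± 146 CPM against 465 ± 115 CPM in iEC (SD, n = 4 each), and the fitted log2 fold change was 0.83 ± 0.20 (SE; adjusted p 0.0160 by edgeR), or 1.78-fold, and the call was lost without iEC C (adjusted p 0.0564).

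LAMB3 (chromosome 1, 209614870 to 209652466) had the largest fitted fall of the members with reads in every sample. It stood at 21.7, 28.4, 50.8 and 50.7 CPM in iEC C to F and at 0.0654, 1.86, 1.47 and 1.70 CPM in iREC C to F. All iREC samples were below 2 CPM, and iREC C was the lowest, at 1 count. It fell to an average of 1.27 ± 0.82 CPM against 37.9 ± 15.1 CPM in iEC (SD, n = 4 each), and the fitted log2 fold change was -4.89 ± 0.63 (SE; adjusted p 0.000629 by edgeR). Beside it, the epithelial marker CLDN7 was also lower in iREC, 40.6 ± 10.9 CPM in iEC and 4.01 ± 0.82 CPM in iREC (log2 fold change -3.34), whereas KRT7 was higher.

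LAMB2, the beta chain that can replace LAMB1, ranged from 232 to 479 CPM in iEC and from 379.8 to 429 CPM in iREC (log2 difference 0.27 ± 0.20, SE, edgeR adjusted p 0.366). Without iEC F, its highest sample, the log2 difference was 0.49 and past the threshold (adjusted p 0.0411). LAMB4, a rarely expressed beta chain, had 2, 6, 2 and 3 counts in iEC C to F and 16, 12, 16 and 18 counts in iREC C to F. It was called higher (adjusted p 0.00659 by edgeR), and no fold is given because the iEC counts are so few.

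Of the gamma chains, LAMC1 (chromosome 1, 183023460 to 183145592) stood at 790.4, 1036, 647 and 831 CPM in iEC C to F and at 1177, 1039, 1129.6 and 1423 CPM in iREC C to F. The groups did not overlap, though iEC D and iREC D lay side by side. Averages of 826 ± 161 CPM in iEC and 1192 ± 164 CPM in iREC (SD, n = 4 each) gave a fitted log2 fold change of 0.53 ± 0.17 (SE; adjusted p 0.0493 by edgeR). It was no longer called in 7 of 8 fits with 1 sample left out and in 3 of the 9 other alternatives, with adjusted p up to 0.122. LAMC3, a gamma chain of the retina and nervous system among other sites, ran from 0.787 to 1.37 CPM in iEC and from 2.49 to 4.58 CPM in iREC (log2 fold change 1.69 ± 0.32, SE, adjusted p 0.00486).

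Per length, the beta and gamma chains stood well above the alpha chains in both groups. The summed RPKM of the alpha chains was 38.3 ± 13.2 in iEC and 27.05 ± 11.9 in iREC (SD, n = 4), that of the beta chains 114 ± 30.9 and 161 ± 19.2, and that of the gamma chains 100.3 ± 18.8 and 143 ± 19.4. The ratio of summed beta to summed alpha chains lay between 2.67 and 3.40 in iEC and between 3.74 (iREC F) and 10.9 (iREC C) in iREC, so the ranges did not overlap. LAMA5 made up 72.3 ± 12.6% of the alpha chains in iEC and 81.1 ± 3.06% in iREC, and LAMA4 26.7 ± 12.5% and 14.3 ± 3.65%, with overlap in both. LAMB1 made up 50.5 ± 4.45% of the beta chains in iEC and 63.0 ± 3.87% in iREC, without overlap, and LAMB3 6.95 ± 1.45% and 0.179 ± 0.121%, also without overlap. LAMC1 was nearly the sole gamma chain, at 97.9 ± 0.89% and 99.1 ± 0.21%. No test was run on these shares, sums and ratios.

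**Figure D4:**
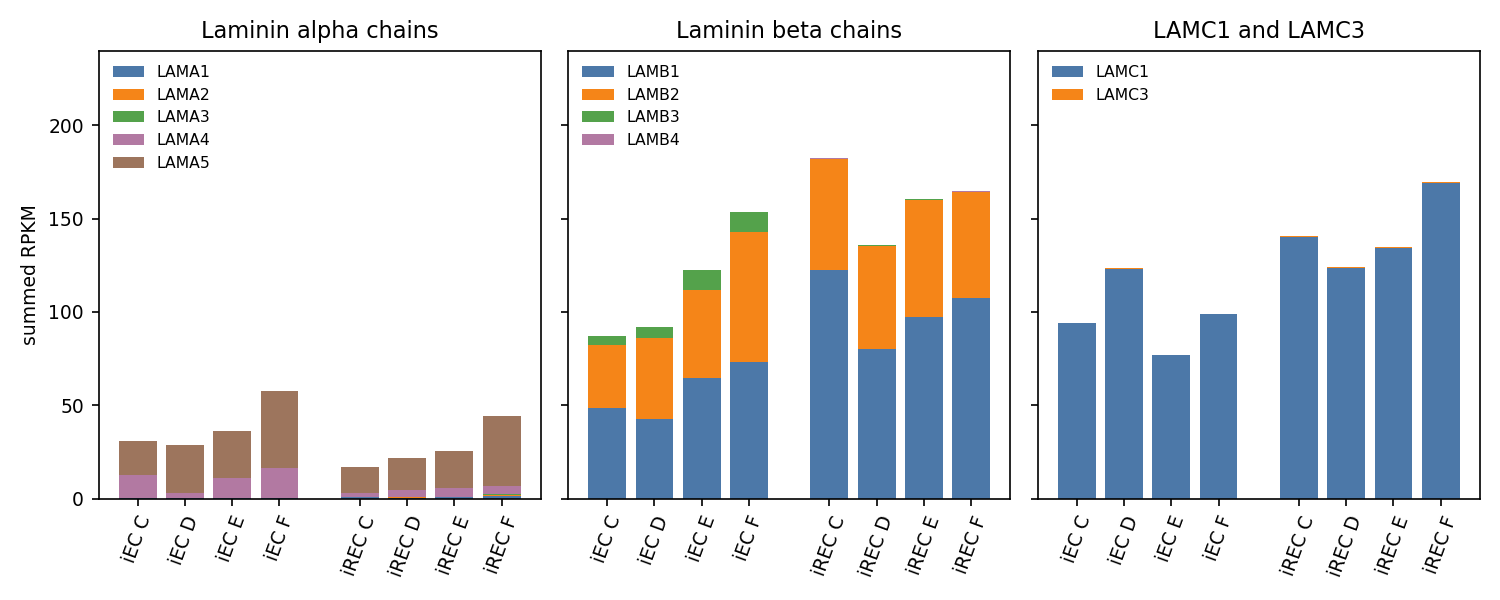
Summed RPKM (vertical axis) of the laminin alpha and beta chains and of LAMC1 with LAMC3 among the gamma chains in each sample, 1 stacked bar per sample, 4 iEC at the left and 4 iREC at the right of each panel. The alpha sums, between 16.7 and 57.6, are below the beta sums and the plotted gamma sums in every sample, and LAMB3 is visible in the iEC bars and hardly in the iREC bars.

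Of the 4 other glycoproteins, NID2 alone was called, a count no different from the 25.0% called among all tested genes. NID2 (chromosome 14, 52004803 to 52069228) stood at 257, 178, 90.1 and 118 CPM in iEC C to F and at 31.9, 37.5, 62.7 and 60.2 CPM in iREC C to F. The groups did not overlap, and iEC C and D were the highest. It fell to an average of 48.1 ± 15.7 CPM against 161 ± 73.8 CPM in iEC (SD, n = 4 each), and the fitted log2 fold change was -1.74 ± 0.35 (SE; adjusted p 0.00658 by edgeR), or 3.34-fold lower. RTRAF, on the opposite strand, shares 30.0% of the NID2 exon bases and averaged 145 CPM in iEC and 97.3 CPM in iREC. The part of RTRAF reads in the NID2 counts was not tested.

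NID1, the other nidogen, stood at 444, 701, 192 and 277 CPM in iEC C to F and at 537, 486, 599 and 523 CPM in iREC C to F. The iREC samples lay within the wide iEC range (log2 difference 0.41 ± 0.34, SE, edgeR adjusted p 0.418). It was 0.18 without iEC E and 0.81 without iEC D (adjusted p 0.683 and 0.0527). The ratio of NID1 to NID2, from RPKM, lay between 1.89 and 4.29 in iEC and between 9.47 and 18.4 in iREC. HSPG2, which encodes perlecan, stood at 1943, 3683, 1997 and 3668 CPM in iEC C to F and at 5406, 2934, 4183 and 3153 CPM in iREC C to F, with overlap (log2 difference 0.47 ± 0.29, SE, adjusted p 0.265). AGRN stood at 102, 113, 156 and 339.8 CPM in iEC C to F and at 197, 235, 219 and 485 CPM in iREC C to F, with sample F the highest of each group, as for LAMA5. Its log2 difference was 0.68 ± 0.43 (SE, adjusted p 0.279). Without iEC F it was 1.20 and past the threshold (adjusted p 0.0376).

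Each integrin was then set beside the laminin alpha chains it is known to bind, per length, as a description without a test. ITGA3 with ITGB1, which binds LAMA5 and LAMA3 laminins, had ITGA3 at 37.7 RPKM in iEC and 40.0 RPKM in iREC and ITGB1 at 406 and 307 RPKM. Its ligands were LAMA5, at 27.5 and 22.0 RPKM, and LAMA3, at 0.00504 and 0.205 RPKM. ITGA6 with ITGB1, which binds laminins of every alpha chain, had 33.6 RPKM of ITGA6 in iEC and 5.48 RPKM in iREC. Of its ligands, LAMA4 was at 10.5 and 3.73 RPKM and LAMA5 was lower by less, as given above, while LAMA1, LAMA2 and LAMA3 had higher means in iREC but stayed under 1 RPKM on average. Thus ITGA6 was near ITGA3 in iEC, with a ratio of ITGA3 to ITGA6 of 1.16 ± 0.36 (SD, n = 4), and well below it in iREC, with a ratio of 7.82 ± 2.37. ITGA6 with ITGB4, the other ITGA6 receptor, had little beta subunit in either group, 0.0478 and 0.0959 RPKM of ITGB4. ITGA7 with ITGB1, a receptor for LAMA1 and LAMA2 laminins, was scarce on both sides: ITGA7 at 0.148 and 0.258 RPKM, LAMA1 at 0.0813 and 0.756 RPKM and LAMA2 at 0.243 and 0.319 RPKM. ITGA2 and ITGA1, collagen receptors that can also bind LAMA1, were at 25.8 and 13.6 RPKM in iEC and at 2.27 and 14.3 RPKM in iREC. ITGAV with ITGB3, which can bind LAMA5, was at 14.3 RPKM of ITGAV and 18.5 RPKM of ITGB3 in iEC and at 48.7 and 12.02 RPKM in iREC.

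By level, ITGB1 stood first in both groups, at 406 ± 40.1 RPKM in iEC and 307 ± 22.5 RPKM in iREC (SD, n = 4), followed by HSPG2 (156 ± 54.4 and 216 ± 62.5 RPKM) and LAMC1 (98.3 ± 19.1 and 142 ± 19.5 RPKM). In iEC the next were ITGA5, NID1, LAMB1, LAMB2, ITGA3 and ITGA6. In iREC they were LAMB1, NID1, ITGA5, LAMB2, ITGAV, ITGA3 and ITGA9. Among the first 10 in iEC, only HSPG2 was separated in all samples from the gene above it. In iREC, LAMB1, LAMB2, ITGAV and ITGA3 were so separated from the gene above, and the other neighbours overlapped. Members at 10 RPKM or more numbered 18 in iEC and 15 in iREC.

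In the wider pathway, integrin ligands other than laminins were more often called higher than lower in iREC. Of 26 such ligands listed, 21 were tested, 11 were higher and 2 lower, with a median log2 fold change of 1.66 beside 0.02 over all tested genes. Among all tested genes 13.2% were called higher and 11.7% lower, and the count of lower ligands is near that share. POSTN (periostin) averaged 13.4 ± 13.4 CPM in iEC and 852 ± 335 CPM in iREC, VTN (vitronectin) 0.349 ± 0.271 and 18.7 ± 5.50 CPM, and FN1 (fibronectin) 335 ± 173 and 13379 ± 3052 CPM (SD, n = 4). Their edgeR adjusted p were 0.00132, 0.000238 and 7.45e-05. ICAM2, a ligand of leukocyte integrins, and TGFB1, whose latent form ITGAV receptors bind, fell by 1.21 and 0.79 on the log2 scale. Without iEC C or without iREC D, 7 of these ligands were called higher, and without iREC F 8. FGA, FGB and FGG were not analysed here.

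In the intracellular adhesion complex, 33 of 35 genes listed were tested, 7 were higher and 3 lower, with a median log2 fold change of 0.22. That count is near the 25.0% called among all tested genes and is no result about the list. FERMT2, the kindlin of most adherent cells, rose from 171 ± 26.7 to 387 ± 67.5 CPM, and FERMT3, the kindlin of blood and endothelial cells, fell from 192 ± 32.8 to 26.3 ± 9.75 CPM (SD, n = 4 each; adjusted p 0.00107 and 0.000182 by edgeR). LIMS2, an adaptor that binds integrin-linked kinase, and TNS1, a tensin that ties integrins to actin, had log2 fold changes of 4.89 and 3.33. PXN (paxillin) and PTK2 (focal adhesion kinase) fell by 1.08 and 0.78 on the log2 scale.

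Laminin receptors other than integrins and the dystroglycan pathway gave 3 higher and 2 lower of 20 tested, with a median log2 fold change of 0.04, a count no different from the 25.0% called among all tested genes. BCAM, a receptor for LAMA5 laminins, rose to 29.5 ± 7.81 CPM in iREC against 6.80 ± 3.03 CPM in iEC (SD, n = 4 each; adjusted p 0.00314 by edgeR). SDC2, a syndecan, had a log2 fold change of 3.36. MCAM, a LAMA4 receptor, fell to 936 ± 306 CPM in iREC against 1921 ± 239.7 CPM in iEC (SD, n = 4 each; adjusted p 0.00923 by edgeR), and UTRN (utrophin) fell by 1.32 on the log2 scale.

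Of 24 other basement membrane genes listed, 17 were tested and 8 were higher and 0 lower by edgeR, with a median log2 fold change of 0.81. Among all tested genes 13.2% were higher and 11.7% lower. None of the 17 was lower at an unadjusted p under 0.05, and DESeq2 and limma-voom each called 0 lower. Without iREC F, 9 were higher and 1 lower. NTN4, a netrin that binds laminin gamma chains, rose to 446 ± 149 CPM in iREC against 5.83 ± 5.22 CPM in iEC (SD, n = 4 each; adjusted p 0.000295 by edgeR). FREM1, a matrix protein of embryonic basement membranes, and P3H2, a prolyl 3-hydroxylase of collagen IV, had log2 fold changes of 4.16 and 3.41.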

How the data were processed

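Poly-A RNA of 8 samples (4 iEC, 4 iREC) was sequenced, with a dUTP second strand, per the labels' protocols. The submitters' processing notes name fastp, HISAT2 2.0.5 and hg38. The counting program and its strand setting are not given in the sources used here. The authors deposited 1 table. Per the file headers its columns are raw counts of reads, which were used for every test, FPKM, which served as an alternative for levels, and log2 fold changes with p-values, whose test is not stated. The normalized signal deposited beside them equals the count divided by 1 factor per sample and was not used. Coordinates of the 40 members match GENCODE release 29 (GRCh38), which also gave the exons that overlap other genes.

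Here, genes were kept by filterByExpr of edgeR 4.0.16 (R 4.3.3), scaled by TMM and compared by its quasi-likelihood F-test with group as the only term, with Benjamini-Hochberg adjustment over all 15330 tested genes and a call at an adjusted p under 0.05. SEs come from the coefficient and the F statistic. RPKM divides CPM by the deposited gene length. The fit was tested on simulated counts. The floor of 3 counts covers counting error only. Promoters come from RefSeq on GRCh38.p14, 250 bases before each start.

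Other settings tried were scaling by upper quartile, by DESeq2 size factors or by library size alone, a fit without a filter or with a harder one (every sample of 1 group at 1 CPM or more, mean count 50 or more), limma-voom 3.58.1 and DESeq2 1.42.0, the sample letter as a block, protein-coding genes only, deposited FPKM or plain counts for levels and shares, and each sample left out. The members and lists were chosen with earlier results of these data known. Any member could be named, though the values of 1 member and 1 list gene are not reported here. From the pathway lists, up to 3 called genes with the largest log2 fold change in each direction were named, if their mean reached 10 CPM in either group. Marker genes, the partners of overlapping genes and a few list counts were named beside the result they touch, after their values were seen. Pluripotency markers (4 tested, 2 higher and 1 lower, summed at 44.2 to 112 CPM in iEC and 91.6 to 552 CPM in iREC) and retinal neuron and pigment epithelium markers (2 tested, 1 higher, 1.29 to 1.95 and 1.44 to 4.89 CPM) were also counted. Among all tested genes 13.2% were called higher and 11.7% lower. The highest pluripotency sum was that of iREC F, where LIN28A stood at 482 CPM. NANOG, SOX2 and TDGF1 were under 1 CPM in every sample.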

Additional observations from a re-analysis of the deposited data

Results flagged for a closer look

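In 68 groups of 4 samples checked over the tested members, 4 held a sample that lay far from the other 3 relative to the group's range (Dixon's test at 95%). Chance alone gives about 5% of such groups, or 3.4. All 4 are iREC samples, 2 of them C and 2 of them F. ITGA11 was at 0.720 CPM in iREC C and between 5.90 and 7.78 CPM in the other 3. LAMB3 was at 0.0654 CPM in iREC C and between 1.47 and 1.86 CPM in the others. ITGA7 was at 1.24 CPM in iREC F and between 1.77 and 1.78 CPM in the others. ITGB5 was at 135 CPM in iREC F and between 223 and 244 CPM in the others.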

How the results depend on the processing

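Of 15 called members, 11 kept their call and direction in every alternative run for them, and ITGA10, LAMA4, LAMC1 and LAMB1 lost it in at least 1. Over 572 alternatives of member fold changes, 521 kept direction and side of the threshold, 34 were no longer past it, 9 came past it and 8 changed sign. The 8 were in uncalled members with 1 sample left out. Over those fits ITGA1 ran from -0.18 (without iREC F) to 0.21 and was -0.08 without iEC E, ITGA11 from -0.43 to 0.31 (without iEC F) and 0.18 without iREC C, ITGA3 from -0.045 (without iEC C) to 0.21, ITGB8 from -0.38 to 0.13 (without iEC E) and 0.06 without iREC D, and LAMA2 from -0.047 (without iREC F) to 0.67. The cause was not tested. Leaving out 1 sample gave 6 to 9 members higher and 6 to 7 lower, 1489 to 2223 of all genes higher and 1171 to 1991 lower, 7 to 13 integrin ligands higher and 0 to 1 other basement membrane genes lower. Whether the letters C to F pair the samples was not settled by their correlations. Same-letter deviations correlated between -0.08 and 0.25 (F, the highest of all pairs), and other pairs between -0.22 and 0.18. In 2 of 4 iEC and 1 of 4 iREC samples the best correlation was with the same letter. With the letter as a replicate block, 1830 of all genes were higher and 1504 lower, and the members stayed at 7 and 8, with AGRN (adjusted p 0.0162) and ITGB3 (0.0370) gained and LAMA4 (0.0957) and LAMC1 (0.0827) lost. Scaling moved the median of all genes by at most 0.03 on the log2 scale. From plain counts, not divided by length, shares moved by more than 1 SD for LAMB1 (55.8% in iEC, 66.9% in iREC), LAMB2 (32.9% in iREC), LAMB3 (4.43% in iEC), ITGA1 (12.8% and 12.9%), ITGA3 (18.5% and 18.9%), ITGA5 (27.7% in iREC) and ITGAV (19.3% in iREC), since long genes then weigh more. The other 120 share alternatives and all 235 level alternatives stayed within 1 SD. The stricter filter left ITGAX, ITGA7, ITGB2, LAMA2, LAMB4 and LAMC3 without a value. Values of 3 counts or fewer in a single sample could not be told from 0 at this depth.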
